A study of Mus musculus with 6 samples.

Results

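The genes of the constitutive proteasome were followed in OT-I cells, which are mouse CD8+ T cells with a transgenic receptor for an ovalbumin peptide. Rows of the expression table were taken whose name begins with Psma, Psmb, Psmc or Psmd and a number, without the immunoproteasome genes Psmb8, Psmb9 and Psmb10, and with at least 1 FPKM (fragments per kilobase and per M mapped, a read count scaled for gene length and depth) in at least 2 of the 6 libraries. Of 40 names, 3 were the immunoproteasome genes, 2 stayed under the filter and 35 were kept, out of 25638 rows in all and 10727 that passed the same filter. The 35 comprise all 14 core subunits (Psma1 to Psma7 and Psmb1 to Psmb7) and 21 names of the regulatory particle (Psmc and Psmd). Of these 21, 17 are subunits of the particle. Psmd5, Psmd9 and Psmd10 encode chaperones that help assemble its base, and Psmc3ip encodes a partner of meiotic recombinases that is not a proteasome subunit. The 4 were kept as the naming rule has them, and counts are given with and without them. The names left under the filter were Psma8, a testis subunit, with at most 0.366 FPKM in any library, and Psmb11, a thymus subunit, with at most 0.0379 FPKM. The lowest kept name was Psmc3ip, with 0.932 FPKM in its lowest library and 20.5 FPKM in its highest.

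All cells were wild type by their label and were held for 48 hours with the peptide OVA257-264, which the OT-I receptor recognises. They were cultured together with TANs, with TAMos or with vehicle, in 2 libraries per group. TANs were sorted as CD11b+ Ly6G+ cells with low Ly6C, and TAMos as CD11b+ Ly6G- cells with high Ly6C. Both came from the spleen, not the tumour, of mice that carried LLC tumours (Lewis lung carcinoma). The OT-I cells were purified after culture. The labels used here give neither ages nor separate cultures or animals behind the paired libraries of each group. The p-values therefore rest on the spread between these samples, and that spread may be technical.

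The proteasome is the main protease of the cytosol and nucleus. Its barrel-shaped core has outer rings of alpha subunits, which gate the entry, and inner rings of beta subunits, some of which cut proteins. A regulatory particle caps the core: its base unfolds substrates with a ring of ATPases, and its lid removes ubiquitin, the tag that marks proteins for destruction. In activated CD8+ T cells, which grow and divide quickly, immunoproteasome subunits can take the place of the catalytic ones. When the proteasome is impaired, the transcription factor NRF1, the product of Nfe2l1, raises its genes through antioxidant response elements in their promoters.

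Judged from the steps between low values, the libraries held 41.6 to 45.3 M counted reads. Since 98.3% of the small read numbers in TAMo replicate 1 were even, its total may be 21.9 M instead of 43.7 M. Mitochondrially encoded RNA took 8.07% and 8.21% of summed FPKM in the TAN libraries, 1.20% and 1.32% in the TAMo libraries, and 8.15% and 8.34% in the vehicle libraries. All 10 markers of CD8 T cells were above 1 FPKM in every group. Of 13 neutrophil markers, none reached 1 FPKM in any group, and S100a8 and S100a9 were listed at 0 throughout. Of 12 monocyte markers, 3 reached 1 FPKM with TAN, 4 with TAMo and 4 with vehicle. Their summed level was 28.9 to 29.0 FPKM with TAN, 17.1 to 21.7 FPKM with TAMo and 35.6 to 36.6 FPKM with vehicle, most of it from Ly6c2 in the TAN and vehicle libraries, a gene that CD8 T cells also express. Ly6c2 itself was at 4.39 and 3.64 FPKM with TAMo, against 29.3 and 30.3 FPKM with vehicle. The other markers that reached 1 FPKM with TAMo were higher there than with vehicle. Cd14 stood at 2.84 and 3.17 FPKM with TAMo, against 0.0852 and 0.0563 FPKM with vehicle. Ms4a6c was at 4.88 and 6.28 FPKM against 2.38 and 2.62 FPKM, and Cd68 at 3.63 and 7.05 FPKM against 2.95 and 2.35 FPKM. Csf1r stayed at or under 0.0361 FPKM in every library. Of 5 B cell markers, 4 reached 1 FPKM in each group, with sums between 6.88 and 9.36 FPKM. The part of these other transcripts in the results below was not tested. In bulk RNA, fewer cells of a type and less RNA per cell cannot be told apart.

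After co-culture with TAMos most proteasome genes were lower, whereas after co-culture with TANs most did not pass the test. With TAMo, 32 of the 35 members fell and 2 rose, and 1 was not called, by a limma test with Benjamini-Hochberg adjusted p under 0.05 over all rows. Of all rows tested, 40.7% fell and 45.7% rose in the same comparison, 86.5% in either direction. The median log2 change was -0.67 over the 14 core members and -0.81 over the 21 regulatory names, beside 0.057 over all rows tested and -0.013 over the 6821 rows with a mean of at least 10 FPKM. All 14 core subunits fell (13 after rescaling without mitochondrial transcripts or quantile normalisation, since Psma6 was then not called), and of the 17 regulatory subunits 16 fell and 1 rose, with a median of -0.81 as well. With TAN, 3 of 35 members fell and none rose, where 11.0% of all rows fell and 9.37% rose, 20.3% in either direction. The share of members called was no larger than that of all rows. At an unadjusted p under 0.05 there were 11 of 35 members and 3737 of 10727 rows. Both responses were measured against the same vehicle libraries.

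**Figure D1:**
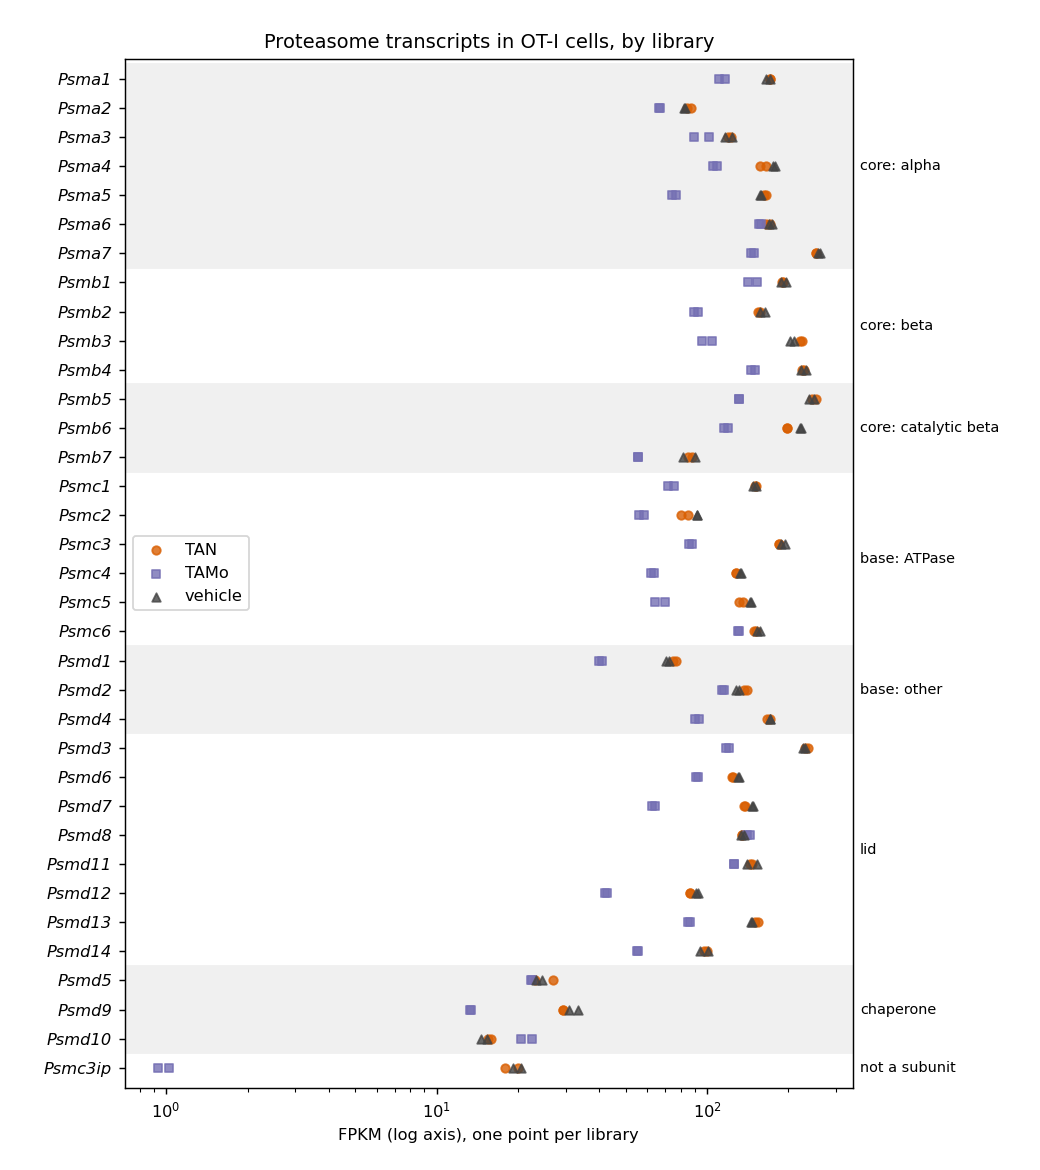
FPKM of each of the 35 members in each library, on a logarithmic axis, with 2 points each for TAN, TAMo and vehicle, and shading by role. TAMo points lie left of the others for all 14 core subunits, and right of them for Psmd8 and Psmd10.

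Summed over its 14 subunits, the core stood at 2456 and 2447 FPKM in the TAN libraries, 1554 and 1552 FPKM in the TAMo libraries, and 2487 and 2456 FPKM in the vehicle libraries. The 17 regulatory subunits summed to 2319 and 2335 FPKM with TAN, 1460 and 1445 FPKM with TAMo, and 2356 and 2370 FPKM with vehicle. The TAMo sums lay below all the others, by 37.2% of the vehicle mean for the core and 38.5% for the regulatory particle. The ratio of the core sum to the regulatory sum was 1.06 and 1.05 with TAN, 1.06 and 1.07 with TAMo, and 1.06 and 1.04 with vehicle. The TAMo ratios were thus at or slightly above the others. The FPKM of all rows also summed to less with TAMo, 546324 and 548039, against 628881 and 628328 with TAN and 630749 and 629901 with vehicle. As a share of all FPKM, the 31 subunits held 0.759% and 0.761% with TAN, 0.552% and 0.547% with TAMo, and 0.768% and 0.766% with vehicle. As a share of all FPKM outside the mitochondrial genome, they held 0.826% and 0.829% with TAN, 0.558% and 0.554% with TAMo, and 0.836% in both vehicle libraries.

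Among the catalytic subunits, all 3 fell with TAMo. Psmb5, which carries the chymotrypsin-like site (GRCm38 chromosome 14, 54614119 to 54618022), had 253 and 244 FPKM with TAN, 131.7 FPKM in both TAMo libraries, and 247 and 239 FPKM with vehicle. Its log2 change was -0.88 ± 0.030 for TAMo against vehicle (SE, limma adjusted p = 8.95e-08) and 0.031 ± 0.030 for TAN against vehicle (adjusted p = 0.519). TAMo libraries stood apart from the other 4, and the TAN and vehicle libraries overlapped. Psmb6, which carries the caspase-like site (chromosome 11, 70525367 to 70527858), had 198 and 197 FPKM with TAN, 119 and 116 FPKM with TAMo, and 222 FPKM in both vehicle libraries. It fell in both co-cultures, by 0.91 ± 0.026 with TAMo (adjusted p = 3.58e-08) and by 0.16 ± 0.026 with TAN (adjusted p = 0.00711) on the log2 scale. Psmb7, which carries the trypsin-like site (chromosome 2, 38588036 to 38644087), had the lowest mean of the core over all 6 libraries, with 88.1 and 85.0 FPKM with TAN, 55.3 and 55.7 FPKM with TAMo, and 81.3 and 90.3 FPKM with vehicle. With TAN and with vehicle, the mean of Psma2 was lower still. The log2 change of Psmb7 was -0.62 ± 0.050 with TAMo (adjusted p = 1.11e-05) and 0.014 ± 0.050 with TAN (adjusted p = 0.874).

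The other beta subunits, which hold no active site, fell with TAMo by 0.37 (Psmb1) to 1.04 (Psmb3) on the log2 scale. Psmb3 (chromosome 11, 97703399 to 97713500) had 220.4 and 224 FPKM with TAN, 95.6 and 104 FPKM with TAMo, and 209.7 and 203 FPKM with vehicle. Its log2 change was 1.15 ± 0.043 for TAN against TAMo (adjusted p = 1.5e-07), the largest of any core gene in that comparison. Its higher values with TAN than with vehicle did not pass (0.11 ± 0.043, adjusted p = 0.126), although the libraries of the groups did not overlap.

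Within the core, the alpha subunits differed most among themselves. Psma5 (chromosome 3, 108256926 to 108279974) had 165 and 163 FPKM with TAN, 74.0 and 77.0 FPKM with TAMo, and 157 and 158 FPKM with vehicle. Its log2 change of -1.05 ± 0.029 with TAMo was the largest of the core (adjusted p = 3.08e-08). Psma7, the most abundant core gene in the TAN and vehicle libraries (chromosome 2, 180036374 to 180042433), had 253 and 254 FPKM with TAN, 149 and 145 FPKM with TAMo, and 261 and 257 FPKM with vehicle, a log2 change of -0.82 ± 0.026 with TAMo. At the other end, Psma6 had 171 and 165 FPKM with TAN, 159 and 155 FPKM with TAMo, and 169.7 and 174 FPKM with vehicle. Its log2 change with TAMo was -0.13 ± 0.030 (adjusted p = 0.00471). It was -0.030 (adjusted p = 0.372) once libraries were rescaled without mitochondrial transcripts, and -0.056 (adjusted p = 0.169) after quantile normalisation. Psma2, Psma3, Psma1 and Psma4 fell by 0.30, 0.33, 0.56 and 0.73. The log2 changes of the alpha subunits with TAMo thus ranged over -0.13 to -1.05.

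**Figure D2:**
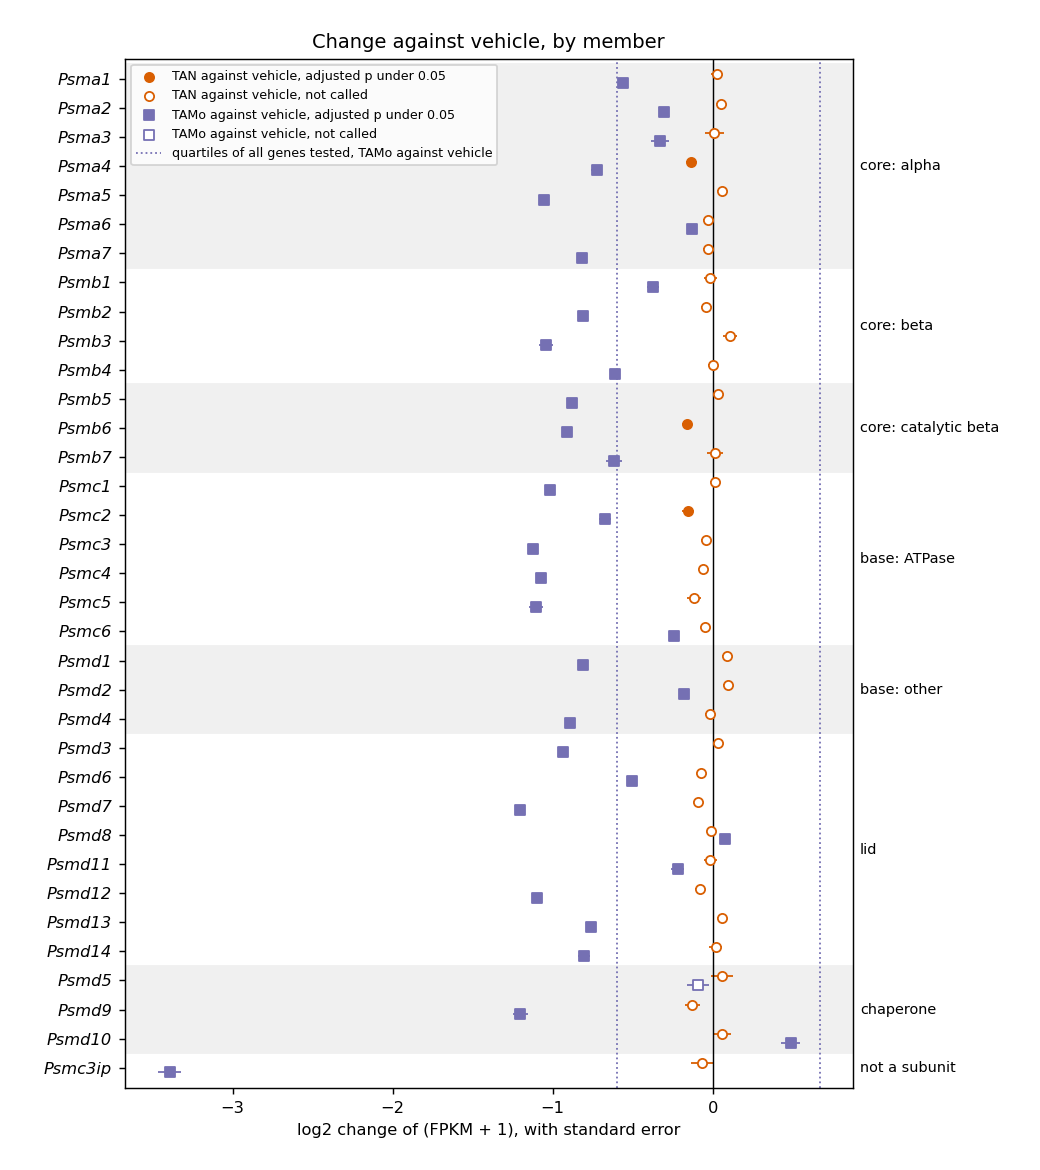
Log2 change of each member against vehicle on the log2(FPKM + 1) scale with its standard error, for TAN (circles) and TAMo (squares), filled where the adjusted p is under 0.05. Squares of the core spread between -1.05 and -0.13, and all circles lie between -0.16 and 0.11.

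In the base of the regulatory particle, all 6 ATPase genes fell with TAMo, and their median log2 change was -1.04. Psmc3, Psmc5, Psmc4 and Psmc1 fell by 1.12, 1.10, 1.07 and 1.02, Psmc2 by 0.67 and Psmc6 by 0.24. The 6 together summed to 825 and 836 FPKM with TAN, 482 and 476 FPKM with TAMo, and 866 FPKM in both vehicle libraries. Psmc2 (chromosome 5, 21785283 to 21803787) also fell with TAN, at 80.4 and 84.8 FPKM with TAN, 58.5 and 56.2 FPKM with TAMo, and 92.1 and 92.0 FPKM with vehicle (-0.16 ± 0.036, adjusted p = 0.0266). Of the scaffold and receptor genes of the base, Psmd1 fell by 0.81 and the ubiquitin receptor gene Psmd4 by 0.89 with TAMo. Psmd2, the gene of the largest scaffold subunit of the base beside Psmd1, fell by 0.18 ± 0.028 (adjusted p = 0.000646).

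Of the 8 lid genes, 7 fell with TAMo and 1 rose. Psmd7 and Psmd12 fell by 1.20 and 1.10, Psmd3 by 0.94, and Psmd14, which encodes the enzyme that cuts ubiquitin off the substrate, by 0.80. Psmd13, Psmd6 and Psmd11 fell by 0.76, 0.50 and 0.22. Psmd3 was the most abundant regulatory gene in the TAN and vehicle libraries (chromosome 11, 98682554 to 98695979), with 236 and 231 FPKM with TAN, 121 and 117 FPKM with TAMo, and 231 and 226 FPKM with vehicle. With TAMo, Psmd8 took that place. Psmd8 (chromosome 7, 29174188 to 29180701) went against the others, with 135 and 134 FPKM with TAN, 145 and 141 FPKM with TAMo, and 137 and 134 FPKM with vehicle. Its log2 change of 0.075 ± 0.028 with TAMo passed narrowly (adjusted p = 0.0336). With median-of-ratios scaling it was 0.011 (adjusted p = 0.724), and the call was lost with no variance trend (0.109), in the fit of 2 groups (0.059), and without TAN replicate 1 or 2 (0.0601 each), TAMo replicate 1 (0.101), or vehicle replicate 1 (0.0505) or 2 (0.166). The rise was larger, at 0.17 (limma adjusted p = 0.000588), after rescaling without mitochondrial transcripts. After quantile normalisation it was 0.12 (limma adjusted p = 0.0042). Psmd8 was the 1 subunit with no fall under any of these settings.

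Among the names that are no subunits, the base chaperones moved in different directions with TAMo. Psmd9 had 29.2 and 29.3 FPKM with TAN, 13.4 and 13.3 FPKM with TAMo, and 33.4 and 30.9 FPKM with vehicle, and fell by 1.20 ± 0.047 with TAMo (adjusted p = 1.82e-07). Psmd10, which encodes gankyrin (chromosome X, 140948429 to 140956728), had 15.5 and 15.8 FPKM with TAN, 20.5 and 22.5 FPKM with TAMo, and 15.4 and 14.6 FPKM with vehicle. It rose by 0.49 ± 0.057 with TAMo (adjusted p = 0.000104), the only member to do so by more than 0.1. Psmd5 was not called, with 23.2 and 27.0 FPKM with TAN, 22.6 and 22.3 FPKM with TAMo, and 24.5 and 23.4 FPKM with vehicle (-0.089 ± 0.069 with TAMo, adjusted p = 0.256). Psmc3ip had 20.0 and 17.9 FPKM with TAN, 1.03 and 0.932 FPKM with TAMo, and 19.1 and 20.5 FPKM with vehicle. At -3.39 ± 0.073 its fall with TAMo was the largest among the 35 names (adjusted p = 9.15e-09), and it belongs to recombination, not to the proteasome.

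The regulatory subunits were less even in level with TAMo than in the other groups, and the core was not. The SD of log2 FPKM over the 17 regulatory subunits was 0.43 and 0.41 in the TAN libraries, 0.56 and 0.55 in the TAMo libraries, and 0.42 and 0.41 in the vehicle libraries. Over the 14 core subunits it was 0.49 and 0.50 with TAN, 0.47 and 0.46 with TAMo, and 0.53 and 0.49 with vehicle. The highest regulatory subunit stood 3.63-fold and 3.45-fold above the lowest with TAMo, 3.14-fold and 3.0-fold with TAN, and 3.18-fold and 3.21-fold with vehicle. Across genes, log2 levels with TAMo and with vehicle had a Pearson correlation of 0.83 in the core and 0.71 in the regulatory subunits, and those with TAN and with vehicle 0.99 and 0.99. These are descriptions over 14 and 17 genes that share the libraries and their depth.

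**Figure D3:**
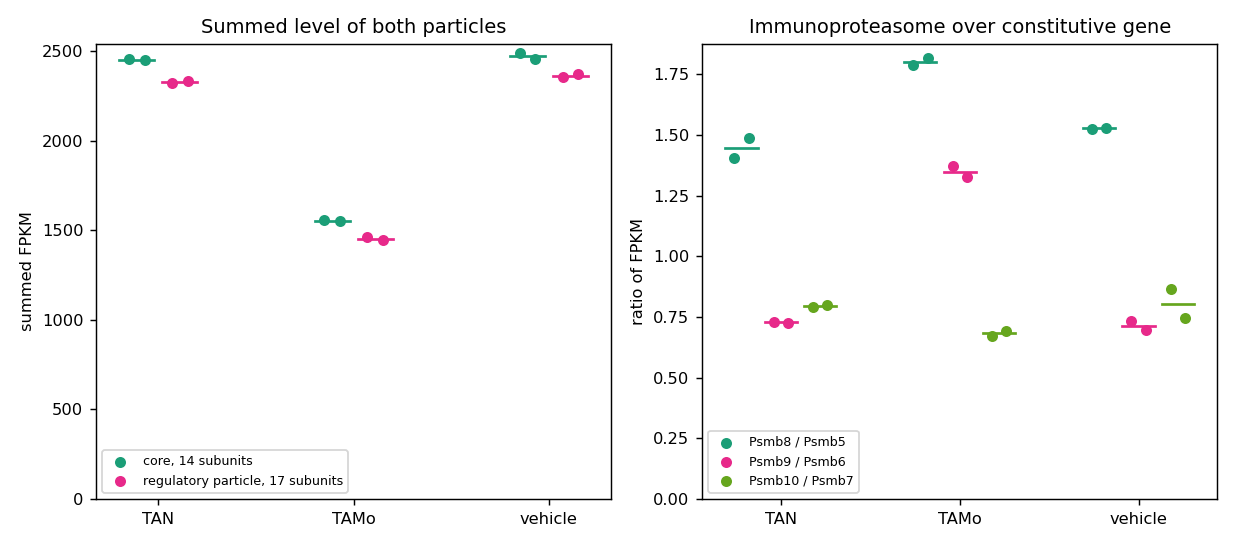
Left, summed FPKM of the 14 core and 17 regulatory subunits in each TAN, TAMo and vehicle library, with the mean as a bar. Right, the FPKM ratio of each immunoproteasome gene to the constitutive gene it replaces: Psmb9 over Psmb6 is 1.37 and 1.33 with TAMo and at most 0.733 elsewhere.

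Promoters are shown for 5 subunit genes, taken among the catalytic genes and those with the largest called changes, that hold the string TGANNNNGC. With any base at each N, this string was taken as a loose form of the core of the antioxidant response element. NRF1, which acts through that element, is a known regulator of proteasome genes. The string was searched on both strands from 250 bases before to 50 bases after the start site in RefSeq promoters of GRCm38.p6. Of 35 members, 29 had an entry, with 31 promoters. Psmb1, Psmb2, Psmb7, Psmc3, Psmd3 and Psmd7 had no entry and were not searched. The letters were found in 18 of these promoters (58.1%), beside 41.3% of all 32851 promoters of the table and 43.2% of those of rows tested. They were in 9 of 12 core promoters and 9 of 19 regulatory ones. The CCAAT box, on either strand, was in 12 of the 31 (38.7%) and in 37.4% of all promoters. A match is a run of letters, not a shown binding site. Each sequence runs 5′ to 3′ on the strand of its gene, and capitals mark the match or its reverse complement.
Psma5 (chr3:108256676-108256975, plus strand): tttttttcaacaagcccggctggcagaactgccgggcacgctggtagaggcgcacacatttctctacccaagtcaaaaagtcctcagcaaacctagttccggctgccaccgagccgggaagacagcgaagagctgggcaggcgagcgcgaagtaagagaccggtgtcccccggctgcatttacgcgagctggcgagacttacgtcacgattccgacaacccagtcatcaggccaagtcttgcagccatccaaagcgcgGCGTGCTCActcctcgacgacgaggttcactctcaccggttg
Psmb3 (chr11:97703184-97703483, plus strand): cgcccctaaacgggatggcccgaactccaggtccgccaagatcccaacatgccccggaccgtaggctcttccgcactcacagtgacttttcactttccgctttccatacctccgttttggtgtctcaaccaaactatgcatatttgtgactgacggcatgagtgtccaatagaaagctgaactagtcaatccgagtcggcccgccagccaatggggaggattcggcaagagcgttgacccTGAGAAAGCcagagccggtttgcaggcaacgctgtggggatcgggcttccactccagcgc
Psmb6 (chr11:70525107-70525406, plus strand): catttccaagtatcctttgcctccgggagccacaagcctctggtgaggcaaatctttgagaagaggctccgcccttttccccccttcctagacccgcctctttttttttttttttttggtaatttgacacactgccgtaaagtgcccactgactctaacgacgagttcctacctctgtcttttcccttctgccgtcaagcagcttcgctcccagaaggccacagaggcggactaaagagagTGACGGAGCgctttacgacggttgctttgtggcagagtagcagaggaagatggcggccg
Psmb5 (chr14:54617946-54618245, minus strand): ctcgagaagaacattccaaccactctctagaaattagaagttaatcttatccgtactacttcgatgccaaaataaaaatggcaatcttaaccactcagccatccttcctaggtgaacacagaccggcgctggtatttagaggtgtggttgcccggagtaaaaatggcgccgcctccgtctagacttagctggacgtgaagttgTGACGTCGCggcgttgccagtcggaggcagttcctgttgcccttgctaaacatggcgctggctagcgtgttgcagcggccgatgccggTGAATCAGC
Psmc2 (chr5:21786497-21786796, plus strand): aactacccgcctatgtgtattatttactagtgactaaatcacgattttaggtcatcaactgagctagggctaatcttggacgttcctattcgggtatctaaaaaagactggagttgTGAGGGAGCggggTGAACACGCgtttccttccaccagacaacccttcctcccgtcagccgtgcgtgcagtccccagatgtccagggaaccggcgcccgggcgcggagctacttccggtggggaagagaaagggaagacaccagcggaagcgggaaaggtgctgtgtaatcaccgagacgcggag
In Psma5 the match lies on the reverse strand, its first letter in the printed direction being base 9 after the start. In Psmb3 and Psmb6 it begins 10 and 9 bases before the start, and in Psmb5 there are 2, which begin 47 bases before and 42 bases after it. The Psmc2 window belongs to the later of its 2 listed starts, with matches that begin 134 and 121 bases before it, and the window of the earlier start held none. These 5 genes, taken as catalytic or for a largest called change in any of the comparisons, fell by 0.67 to 1.05 with TAMo. Psma6 held a match in both of its promoters and Psmc6 held 2 in its own, and their log2 changes with TAMo were -0.13 and -0.24. Psmd8, which did not fall, also held a match, on the reverse strand at base 27. Further matches lay in promoters of Psma4, Psma7, Psmb4, Psmd1, Psmd12 and Psmd13, and of the non-subunits Psmc3ip, Psmd5 and Psmd9. Psmd10 held none in its window. Psma1, Psma2, Psma3, Psmc1, Psmc4, Psmc5, Psmd2, Psmd4, Psmd6, Psmd11 and Psmd14 held none either. Their log2 changes with TAMo ran from -1.10 (Psmc5) to -0.18 (Psmd2).

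With TAN the members that fell were Psmb6, Psmc2 and Psma4, the last of which was named after its values were seen. Psma4 had 157 and 166 FPKM with TAN, 105 and 109 FPKM with TAMo, and 179 and 176 FPKM with vehicle (-0.13 ± 0.034 for TAN against vehicle, adjusted p = 0.0336). All 3 calls were lost without any 1 of the TAN or vehicle libraries, with adjusted p of 0.0523 to 0.0593 for Psmb6, 0.051 to 0.141 for Psmc2 and 0.0588 to 0.176 for Psma4, so that no member was then called. Without TAMo replicate 1, and likewise without TAMo replicate 2, 5 members fell (also Psmc5 and Psmd7) and 2 rose (Psmb3 and Psmd2). Libraries of the TAN and vehicle groups did not overlap for 21 of 35 members, where the share of all rows was 64.1%. For TAMo and vehicle they did not overlap for any of the 35, where the share of all rows was 92.7%.

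Set directly against TAMo, the TAN libraries were higher for 32 of 35 members and lower for Psmd10 and Psmd8, where 40.6% of all rows were higher and 46.0% lower, 86.6% in either direction. The libraries of these groups did not overlap for any of the 35, as for 93.0% of all rows. Psmd5 was not called (0.15 ± 0.069, adjusted p = 0.0764). It was called higher with median-of-ratios scaling (0.22, limma adjusted p = 0.0191) and quantile normalisation (0.19, limma adjusted p = 0.0311). Rescaling without mitochondrial transcripts put it at 0.057 (limma adjusted p = 0.458). Its log2 difference was 0.25 without TAN replicate 1 and 0.044 without TAN replicate 2. The median log2 difference, TAN minus TAMo, was 0.62 in the core and 0.87 over the regulatory names, beside -0.065 over all rows. Psmd10 had a log2 difference of -0.43 ± 0.057 (adjusted p = 0.000222). That of Psmd8 was -0.085 ± 0.028 (adjusted p = 0.0212), and it was -0.012 (adjusted p = 0.7) with median-of-ratios scaling. It missed the threshold with no variance trend (0.0795) and without TAN replicate 1 (0.0728), TAN replicate 2 (0.0887) or TAMo replicate 1 (0.0649). The Psmd8 difference was larger, at -0.18 (limma adjusted p = 0.00047), after rescaling without mitochondrial transcripts. After quantile normalisation it was -0.12 (limma adjusted p = 0.00458). Against vehicle, by contrast, the log2 changes of the TAN libraries ranged over -0.16 to 0.11.

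The immunoproteasome genes, which were left out of the members, fell with TAMo for Psmb8 (-0.64 ± 0.028) and Psmb10 (-0.84 ± 0.037), and Psmb9 was at 163 and 154 FPKM with TAMo against 162 and 154 FPKM with vehicle. Psmb9 was not called (0.0018 ± 0.039, adjusted p = 0.968), and of the alternatives run only rescaling without mitochondrial transcripts called it (0.099, adjusted p = 0.0434). The ratio of Psmb9 to Psmb6, whose place it takes, was 1.37 and 1.33 with TAMo, against 0.733 and 0.695 with vehicle, that of Psmb8 to Psmb5 1.79 and 1.82 against 1.52 and 1.53, and that of Psmb10 to Psmb7 0.672 and 0.692 against 0.865 and 0.745.

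Other genes of the pathway were taken from lists by function. The counts of each list stand beside the shares of all rows tested. With TAMo, 40.7% of all rows fell and 45.7% rose, 86.5% in either direction. With TAN, the listed genes described here that were called are Uba1, which rose, and Psme1, Zfand2a, Nfe2l1 and Nsfl1c, which fell. Of all rows tested, 20.3% were called with TAN. Psme1 (-0.125, limma adjusted p = 0.021) was not called with no filter on low values (0.0563), quantile normalisation (0.0995) or no variance trend (0.0856). Nfe2l1 was not called with no variance trend (0.0537). The calls of Psme1 and Nsfl1c were lost without any 1 of the TAN or vehicle libraries (adjusted p up to 0.131 and 0.0985). Of 5 chaperones of core assembly, 4 fell with TAMo and none rose. Psmg1, a chaperone of the alpha ring, had 49.6 and 52.0 FPKM with TAN, 17.9 and 20.1 FPKM with TAMo, and 50.9 and 49.7 FPKM with vehicle, a log2 change of -1.36 ± 0.056 with TAMo (adjusted p = 2.45e-07). Pomp, which helps the beta ring mature, was not called, with 65.7 and 65.0 FPKM with TAMo against 69.0 and 68.1 FPKM with vehicle (-0.068, adjusted p = 0.0522). It was called lower with no filter on low values (adjusted p = 0.0279) and with median-of-ratios scaling (-0.13, adjusted p = 0.00316), while rescaling without mitochondrial transcripts put it at 0.029 (adjusted p = 0.362). Of 6 activators and inhibitors of the core, 3 rose with TAMo and 1 fell. Psme4, the gene of the activator PA200, had 37.7 and 41.7 FPKM with TAN, 55.1 and 54.2 FPKM with TAMo, and 34.0 and 35.8 FPKM with vehicle (0.63 ± 0.053 with TAMo, adjusted p = 1.4e-05). Psme3, the gene of PA28 gamma, was at 213 and 216 FPKM with TAMo and 214 and 215 FPKM with vehicle. The TAMo libraries differed from each other for Psme2, at 279 and 219.7 FPKM, and its log2 change was 0.26 ± 0.096 (adjusted p = 0.035). Psme2b, a near-identical copy that can share its reads, was not called (adjusted p = 0.93).

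Of 14 other subunits and partners of the regulatory particle, 8 fell and 4 rose with TAMo. Uchl5, the gene of a deubiquitinase of the particle, had 99.8 and 99.0 FPKM with TAN, 43.3 and 41.4 FPKM with TAMo, and 96.7 and 104 FPKM with vehicle (-1.23 ± 0.042, adjusted p = 8.94e-08). The gene of its receptor on the particle, Adrm1, was at 49.2 and 53.6 FPKM with TAMo against 122 and 119 FPKM with vehicle. Zfand2a, a stress-induced partner of the proteasome, was lower with TAN and higher with TAMo, at 6.69 and 6.48 FPKM with TAN, 15.3 and 16.5 FPKM with TAMo, and 8.84 and 8.12 FPKM with vehicle. Its TAN call (-0.32, adjusted p = 0.0166) was lost with no filter on low values (0.054) and without TAN replicate 1 (0.069), TAN replicate 2 (0.0949) or vehicle replicate 1 (0.0972).

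Of 8 tested genes of transcriptional control, 3 rose and 4 fell with TAMo. Nfe2l1 had 48.9 and 49.2 FPKM with TAN, 69.5 and 70.9 FPKM with TAMo, and 53.8 and 55.8 FPKM with vehicle. It rose by 0.35 ± 0.032 with TAMo (adjusted p = 2.44e-05), opposite to the members, and its fall with TAN (-0.16, adjusted p = 0.0176) was lost without any 1 of the TAN or vehicle libraries (0.0509 to 0.0991). Nfe2l2, the gene of NRF2, was at 9.33 and 9.76 FPKM with TAMo against 17.3 and 16.9 FPKM with vehicle. Stat3, a factor of cytokine signalling, rose most in this list, by 0.98 ± 0.024 with TAMo.

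Of 4 genes of ubiquitin and its activating enzymes described here, 2 rose and 1 fell with TAMo. Rps27a, which encodes ubiquitin fused to a ribosomal protein and has copies that can share its reads, had 1277 and 1271 FPKM with TAN, 667 and 777 FPKM with TAMo, and 1244 and 1272 FPKM with vehicle (-0.81 ± 0.064 with TAMo, adjusted p = 1.02e-05). The TAMo libraries stood below the other 4. Uba1, the gene of the main enzyme that activates ubiquitin, rose in both co-cultures, with 193 and 192 FPKM with TAN, 196 and 195 FPKM with TAMo, and 164 and 166 FPKM with vehicle (0.22 ± 0.024 with TAN, adjusted p = 0.00173). Of 8 genes of the unfoldase p97 and its cofactors, 4 rose and 3 fell with TAMo. Vcp, the gene of p97 itself, had 91.6 and 97.9 FPKM with TAMo against 135 and 144 FPKM with vehicle (-0.55 ± 0.043, adjusted p = 8.86e-06). Faf2, a cofactor of p97 at the endoplasmic reticulum, was lower with TAN than with TAMo by 0.70 on the log2 scale, at 56.7 and 57.8 FPKM against 91.5 and 95.6 FPKM.

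**Figure D4:**
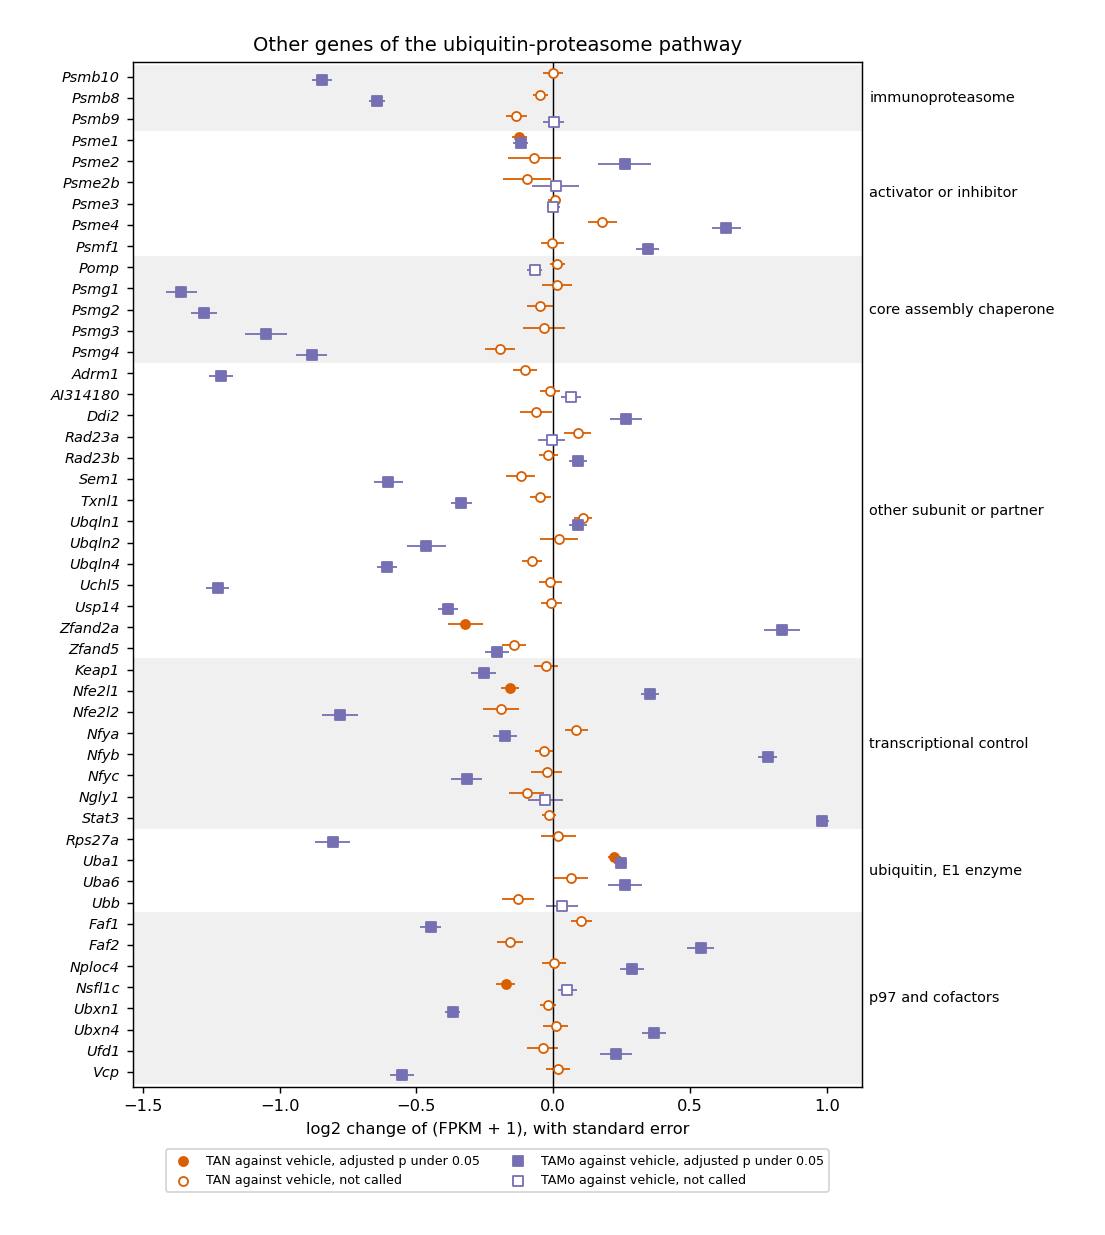
Log2 change against vehicle with its standard error for other genes of the pathway, in TAN (circles) and TAMo (squares), filled where the adjusted p is under 0.05. In TAMo, 4 of 5 core assembly chaperones lie between -1.36 and -0.88, while Psme4 is at 0.63 and Nfe2l1 at 0.35.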

How the data were processed

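RNA of OT-I cells was measured by sequencing in 6 libraries, 2 each with TAN, TAMo and vehicle. The authors deposited 1 table with an FPKM value for each gene in each library. The submitters' processing notes list CASAVA, HISAT2 2.0.5, featureCounts 1.5.0-p3 and mm10, without roles. The strand setting and annotation are unknown (not given in the sources used here). As each value is relative to the library total, a change of abundant transcripts moves all others.

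Each column was matched to a sample by its description. Rows with at least 1 FPKM in at least 2 libraries were fitted on log2(FPKM + 1) with limma 3.58.1 (R 4.3.3): 1 model over all 6 libraries, eBayes with a mean-variance trend, 3 residual and 4.07 prior degrees of freedom, two-sided tests, and Benjamini-Hochberg adjustment over 10727 rows. The procedure was tested on simulated data in which few genes changed. That setting differs from the TAMo comparison, where most rows were called. A value after ± is a standard error. A change on this scale understates that of low genes. Depth was estimated in 7708 genes with 1 annotated transcript (GENCODE M21), from the steps between their low values, where 98.8% to 99.0% of values up to 40 reads were whole within 0.1. For a gene 1 kb long, 1 read then equals 0.0221 to 0.0240 FPKM, or 0.0457 FPKM in TAMo replicate 1 if each step is 1 read. Coordinates come from GENCODE M21 on GRCm38, the assembly of mm10, where all 35 members were found.

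The members and gene lists were chosen with earlier results of these data known. Core and regulatory particle were described side by side, with no test over members. Genes given in full were the catalytic subunits, the largest called changes of each particle and comparison, and members called against the majority. So were the most and least abundant gene of each particle and the names that are no subunits. In each pathway list the called gene of largest change was named, but not always with its value in every library. Other genes were given as examples. The promoter of Psmc3ip, which the rule would also show, was left out because it is no proteasome gene. Alternatives covered the pseudocount, the filter, scaling, the variance model, the groups fitted, single libraries and the replicate number. Protein sequences were not used here. Some genes of the ubiquitin list are not reported here.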

Additional observations from a re-analysis of the deposited data

How the results depend on the processing

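Falls with TAMo against vehicle numbered 31 or 32 of 35 members under each alternative run (pseudocount 0.1, no filter on low values, a mean of at least 5 FPKM, 3 scalings, no variance trend, fits of 2 groups, a replicate block, and each library left out), and rises with TAN against TAMo 31 to 33. Small counts moved more. Members higher with TAMo than with vehicle numbered 2, but 1 with median-of-ratios scaling, with no variance trend and in the fit of 2 groups, and 1 to 2 with single libraries left out. Members lower with TAN than with TAMo numbered 2, but 1 with median-of-ratios scaling and with no variance trend, and 1 to 2 with single libraries left out. Members lower with TAN than with vehicle numbered 3, but 1 with no filter and with no variance trend, 2 with quantile normalisation, 4 where the mean had to reach 5 FPKM, 5 in the fit of 2 groups, and 0 to 5 with single libraries left out. Members higher with TAN than with vehicle numbered 0, but 1 (Psmd2) with median-of-ratios scaling, 2 in the fit of 2 groups, and 0 to 2 with single libraries left out. Where a library was left out, the lone library of its group was assumed to vary like the others. The causes were not tested.

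The replicate number was not known to pair libraries. Between same-numbered libraries the differences from the group mean correlated at 0.12 (TAN and vehicle), 0.022 (TAMo and vehicle) and 0.081 (TAN and TAMo) over 6821 genes. With the replicate block, 1 member (Psmd2) was higher with TAN than with vehicle, and the other counts of members were 3, 2, 32, 32 and 2 as without it.

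The median log2 change of the core with TAMo was -0.74 with median-of-ratios scaling and -0.57 after rescaling without mitochondrial transcripts, and that of the regulatory names -0.71 after that rescaling. Pomp, at 0.083 for TAN against TAMo, was at -0.011 (adjusted p = 0.717) after the same step, which is not a call. Exons of 9 members, among them Psmb7, Psma4, Psma5, Psmc3 and Psmc3ip, overlap a gene on the opposite strand, and without a stated strand setting their reads cannot be separated. Processed copies of proteasome genes may share reads with them.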
